A study of Mus musculus with 6 samples.

Results

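The nuclear genes of oxidative phosphorylation were followed in GLUTag cells, a mouse enteroendocrine line that carries the glucagon gene and releases GLP-1. Members were the protein-coding genes whose symbol begins with Nduf (without the Ndufaf assembly factors), Uqcr, Cox4i, Cox5, Cox6, Cox7, Cox8 or Atp5, together with Sdha, Sdhb, Sdhc and Sdhd. This name rule took 86 of the 54281 rows of the count table, and the 86 rows carry 85 symbols, because Atp5o is listed under 2 identifiers. By the complexes of the inner mitochondrial membrane they were 36 genes of complex I, 4 of complex II, 8 of complex III, 20 of complex IV and 18 of complex V.

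RNA came from 6 samples of this unmodified line and all samples had the same treatment, which was 48 h on Matrigel in medium with 1 g/L glucose and 10% FBS. Of these samples, 3 were on plate 1 at passage 23 and 3 on plate 2 at passage 27. Passage and plate cannot be told apart. Nothing in the labels says that samples of a plate came from separate cultures, so that a p-value between plates measures the spread between these samples, which may be technical. The libraries read the 3′ end of polyadenylated transcripts, and a count stands for a transcript whatever its length. Levels are given as counts per M counts of the library (CPM), which allows genes to be compared with each other without division by length. The plate 2 columns are numbered anew from 1 and could not be tied to the replicates of the labels, so they are named by their total as the lowest, middle and highest.

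Totals lay between 21399987 and 36488198 counts, and the limit that a count of 0 allows, taken as 3 counts, was 0.0822 to 0.14 CPM. The limits cover counting error only. Enteroendocrine markers summed to between 5013 and 5873 CPM on plate 1 and between 5985 and 6892 CPM on plate 2. The defining markers Gcg and Chga were at least 2530 and 186 CPM in every library, and Pyy stayed at or below 0.55 CPM. The marker lists for other epithelial cells, fibroblasts, muscle and blood summed to at most 7.52 CPM. Of the 2 endothelial markers, Cdh5 was at most 0.14 CPM, and Pecam1 was 39.6, 58.8 and 99.8 CPM on plate 1 against 23.7, 3.41 and 32.7 CPM on plate 2. Bc1, a short noncoding RNA, took 9.74%, 12.0% and 9.76% of the counts on plate 1 and 4.33%, 4.77% and 3.44% on plate 2. The middle library of plate 2 stood apart from the others in several members, and values without it are given beside several results.

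In oxidative phosphorylation, complexes I and II pass electrons from NADH and succinate to ubiquinone, complex III passes them on to cytochrome c, and complex IV passes them to oxygen. Complexes I, III and IV pump protons while they do so, and complex V, the ATP synthase, uses the proton gradient to make ATP. Most subunits are encoded in the nucleus and a few on the mitochondrial chromosome. In some endocrine cells the ATP made here is a signal that links nutrients to secretion. Several subunits of complex IV exist in a ubiquitous form and in a form known from heart and muscle, lung, testis or brain.

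Nearly all members were among the well expressed genes of GLUTag cells. More than 3 counts were found in every library for 81 of the 86 members, and at least 100 CPM in every library for 66, whereas 1334 of all 54281 genes reached that level. Among the 500 genes with the highest mean, 44 were members. All members together had 31566, 30194 and 31791 CPM on plate 1 and 31720, 35553 and 30241 CPM on plate 2, a mean of 31844 ± 1957 CPM (SD, n = 6 libraries) or 3.18% of all counts. The median of the 80 members that passed the filter on low counts was 342 CPM, against 13.1 CPM for all 15669 genes that passed it. In a bulk sample, fewer cells with a transcript and less of it per cell cannot be told apart.

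The sums differed between the complexes. Complex I summed to 10181 ± 478 CPM, complex V to 9802 ± 593 CPM and complex IV to 8151 ± 670 CPM (SD, n = 6 libraries). The 8 genes of complex III summed to 3227 ± 252 CPM, and the 4 genes of complex II, which is also an enzyme of the citric acid cycle, to 482.9 ± 56.5 CPM. The median gene had 513 CPM in complex V, 409 CPM in complex III, 361 CPM in complex IV, 257 CPM in complex I and 101 CPM in complex II. Over the 81 members with more than 3 counts in every library, which leaves out 4 genes of complex IV and 1 of complex V, the medians of complexes IV and V were 509 and 520 CPM, so that the order of complexes III and IV turned. The rank order of the members was nearly the same from library to library, with a Spearman rho between 0.9126 and 0.9969 over 81 members, which are not independent of each other. Over the libraries the median coefficient of variation was 12.9% for the 76 members of at least 30 CPM, and 16.2% for all 5031 genes of that level.

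**Figure D1:**
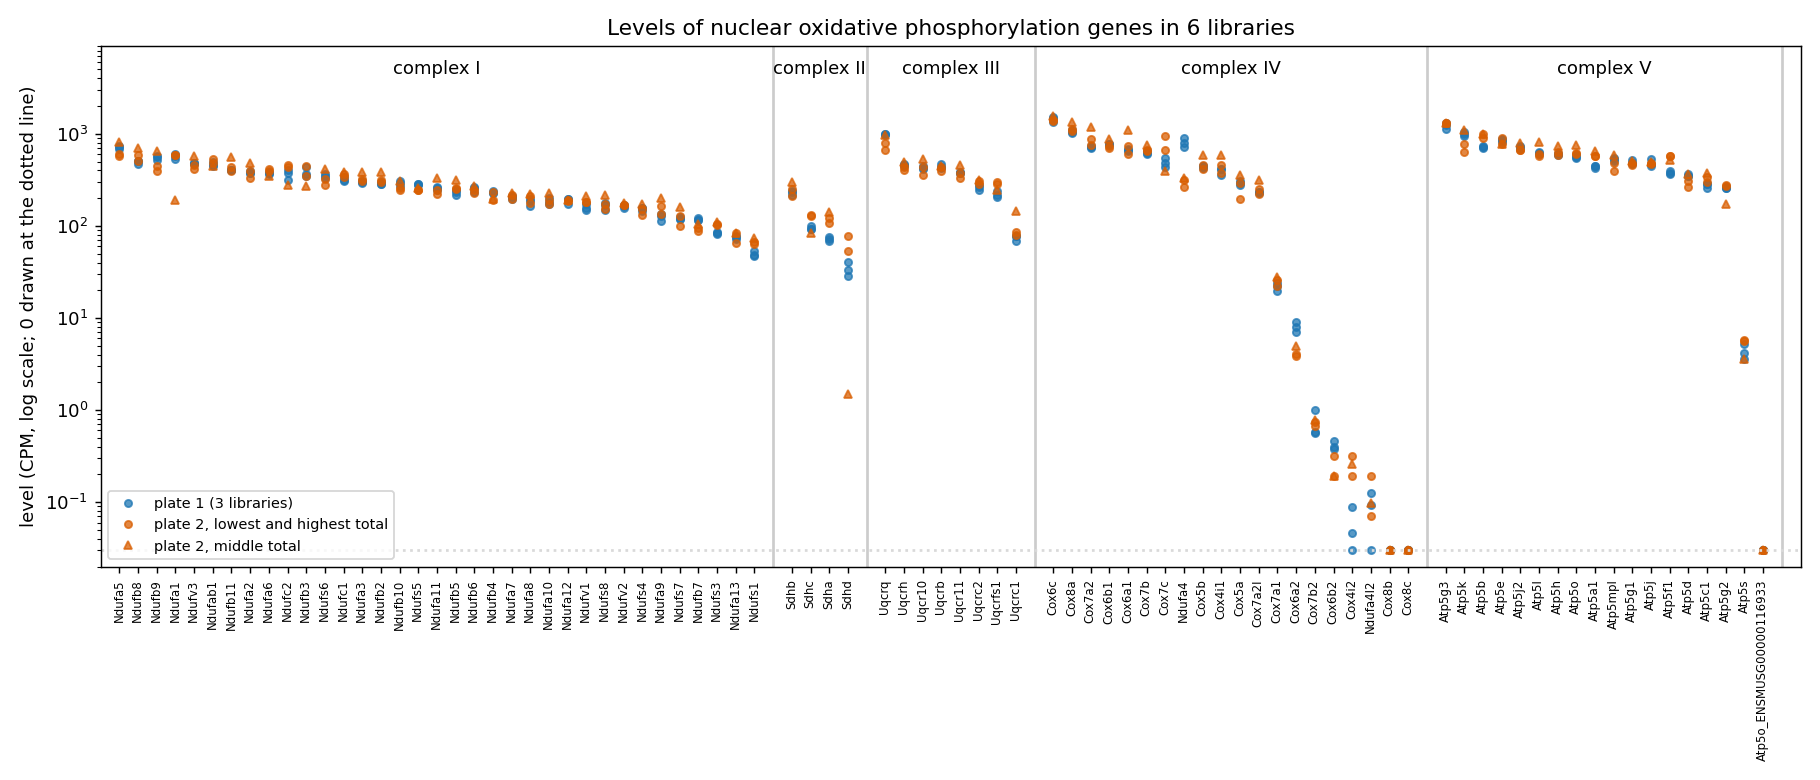
Level of the member genes (CPM, log axis; 1 of the 86 is not drawn) in each of the 6 libraries, grouped by complex and ordered by the mean, with plate 1 in blue, plate 2 in orange and the middle library of plate 2 as triangles. Most genes lie between 100 CPM and 1449 CPM, the tissue forms of complex IV fall to the right of their complex, and Ndufa4 is split by plate.

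In complex I, the 7 core genes encode the subunits through which electrons pass from NADH to ubiquinone, and they were among the lowest of the complex. They summed to 894 ± 101 CPM (SD, n = 6). Ndufs1, the large iron-sulphur subunit, had 58.5 CPM, the lowest mean of complex I, and Ndufs3, of the arm that leads to ubiquinone, had 95 CPM. Ndufs7, which holds the last cluster before ubiquinone, had 125 CPM, and Ndufv1, which binds NADH and the flavin, had 176 CPM, the highest of the core. Eef1b2, at 647 CPM, overlaps Ndufs1 on the opposite strand, and the strand setting of the counting is not given in the sources used here.

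The rest of complex I were accessory genes, with the acyl carrier Ndufab1 at 478 CPM. The 9 accessory genes of the matrix arm summed to 2974 ± 248 CPM and the 19 of the membrane arm to 5835 ± 190 CPM (SD, n = 6). Ndufa5 with 685 CPM, Ndufb8 with 547 CPM and Ndufb9 with 524 CPM were the highest genes of the complex. Ndufa13, also known for a role in cell death, had 76.3 CPM and was the lowest accessory gene.

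Complex II was led by Sdhb, its iron-sulphur subunit, with 242 CPM. Sdhc, a membrane anchor, had 104 CPM, Sdha, the flavoprotein that oxidises succinate, 97.9 CPM, and Sdhd, the other anchor, 38.9 CPM. In complex III, small accessory subunits were highest, with Uqcrq at 899 CPM, Uqcrh, the hinge protein, at 452 CPM and Uqcr10 at 436 CPM. The core proteins Uqcrc2 and Uqcrc1 had 284 and 88.9 CPM and the Rieske iron-sulphur protein Uqcrfs1 249 CPM. So in complexes I and III the core genes lay below most accessory genes.

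The highest member of all was in complex IV, Cox6c with 1449 CPM, followed there by Cox8a with 1114 CPM and Cox7a2 with 827 CPM. Of the subunits next to the mitochondrially encoded core, Cox4i1 had 435 CPM, Cox5a 288 CPM and Cox5b 461 CPM. Among the members of complex V, Atp5g3, which encodes the membrane c subunit, led with 1264 CPM. Atp5k, subunit e, and Atp5b, the catalytic beta subunit, followed with 914 and 843 CPM. Usmg5, a subunit of complex V outside the name rule, had 1962 CPM. The alpha subunit Atp5a1 had 520 CPM and the gamma subunit Atp5c1 307 CPM. Atp5s, known as coupling factor B and not a subunit of the purified enzyme, had 4.65 CPM.

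Near-identical copies can take reads of a member. A copy was counted where a transcript of another gene matched at least 100 nt of the last 300 nt of the member's transcript at 95% identity or more. Other members and genes that overlap the member on its strand were left out, and 25 members had 47 such copies. Their share was large for Cox7c, where Gm10012 and 3 other copies had 978 CPM against 579 CPM for the gene itself, or 62.8% of both. Copies held 16.5% of the sum for Ndufa12 and 12.4% for Atp5g1, and at most 1.51% for any other member. The levels of Cox7c, Ndufa12 and Atp5g1 are therefore uncertain. No such copy was found for Ndufa4.

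A few members were at or near the detection limit, most of them forms known from other tissues. Cox8b, the heart and muscle form, and Cox8c, a testis form, had a count of 0 in all 6 libraries. So did the Atp5o row with the identifier ENSMUSG00000116933. A count of 0 allows up to 0.14 CPM in the shallowest library. This Atp5o row overlaps the other Atp5o row and Donson on the same strand. Its end matches Donson, at 14.4 CPM, over 287 nt with 100% identity, so that its 0 is uncertain. Cox4i2, the lung form of subunit 4, had at most 9 counts and Ndufa4l2, known as a gene induced by low oxygen, at most 7 counts in a library, with a 0 in 1 library each. Cox6b2, the testis form of subunit 6b, had 6 to 11 counts, and Cox7b2, also known from testis, 12 to 27 counts. More than 10 CPM was reached by only 1 tissue form of the 7, Cox7a1 of heart and muscle, with 23.8, 22.2 and 19.6 CPM on plate 1 and 26.0, 27.8 and 22.5 CPM on plate 2.

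Alternative forms of a subunit were compared for 12 pairs, each library giving the log2 of (CPM + 1) of a form over (CPM + 1) of the other. The form named first here was higher in 6 of 6 libraries in all 12 pairs, each with a two-sided p of 0.03125 in an exact permutation test that flips signs, also 0.03125 after adjustment over the 12, which is the smallest p that 6 libraries allow. The test takes the 6 libraries as independent, while libraries share a plate and the labels name no separate cultures. Where the other gene had 3 counts or fewer in a library, the test says only that the named form was detected. Cox6b1 exceeded Cox6b2 by 9.19 ± 0.18 on the log2 scale, Cox4i1 exceeded Cox4i2 by 8.55 ± 0.22, Cox7b exceeded Cox7b2 by 8.58 ± 0.16 and Cox8a exceeded Cox8b and Cox8c by 10.1 ± 0.15 (SD, n = 6). These sizes depend on the pseudocount of 1 CPM, and with 0.1 and 5 CPM the log2 ratios were 10.87 and 7.18 for Cox6b1, 10.91 and 6.40 for Cox4i1, 9.66 and 6.85 for Cox7b and 13.44 and 7.80 for Cox8a. In each of these pairs the other form held at most 0.11% of the counts of the pair on average.

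For subunit 6a, Cox6a1 had 663, 643 and 678 CPM on plate 1 and 737, 1090 and 609 CPM on plate 2, while Cox6a2, the heart and muscle form, had 7.96, 8.97 and 7.10 CPM on plate 1 and 4.06, 5.01 and 3.84 CPM on plate 2. The ratio of CPM ranged from 71.6 to 217, and the log2 ratio of (CPM + 1) was on average 6.2 on plate 1 and 7.22 on plate 2, without overlap of the plates. For subunit 7a, Cox7a2 exceeded Cox7a1 by 5.05 ± 0.17 (SD, n = 6), and Cox7a1 held 2.82% ± 0.30 of the pair. Cox7a2l, which encodes a factor that joins complexes III and IV into supercomplexes, was 1.72 ± 0.12 below Cox7a2 on the same scale, with 248 CPM. The plates did not overlap in this ratio either, with means of 1.63 on plate 1 and 1.81 on plate 2. Differences of the ratios between plates were not tested.

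The 3 genes Atp5g1, Atp5g2 and Atp5g3 encode the same mature c subunit behind different import sequences, and all of them were well expressed. Atp5g3 had 1238, 1123 and 1300 CPM on plate 1 and 1321, 1298 and 1304 CPM on plate 2. Atp5g1 had 486 CPM and Atp5g2 250 CPM on average. Atp5g3 exceeded Atp5g1 by 1.38 ± 0.11 and Atp5g2 by 2.35 ± 0.28, and Atp5g1 exceeded Atp5g2 by 0.97 ± 0.30 on the log2 scale (SD, n = 6). The middle library of plate 2, with 174 CPM of Atp5g2 against 255 to 280 CPM in the others, gave the largest ratios of Atp5g3 and Atp5g1 over Atp5g2, at 7.46 and 2.94.

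**Figure D2:**
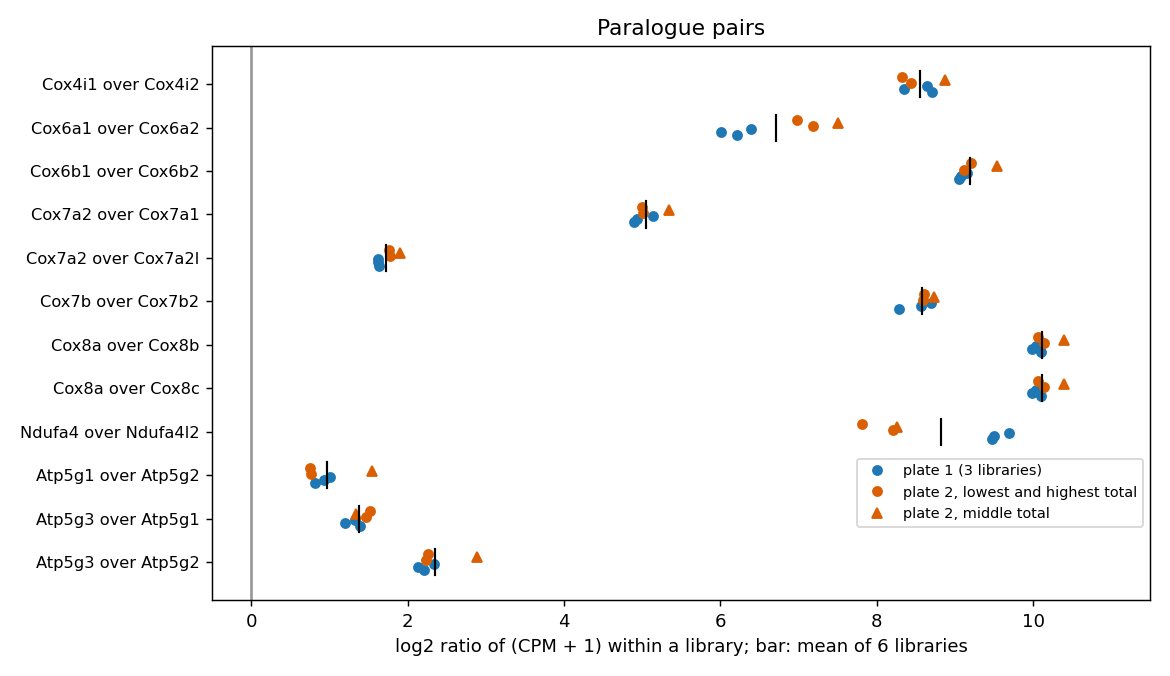
Log2 ratio of CPM + 1 for the 12 pairs of paralogues (horizontal axis), with a point for each library (plate 1 in blue, plate 2 in orange, its middle library as a triangle) and a bar at the mean of the 6. All points lie to the right of 0, and the pairs Atp5g1 over Atp5g2 and Atp5g3 over Atp5g1 are nearest to it. The plates do not overlap for Cox6a1 over Cox6a2, Cox7a2 over Cox7a2l and Ndufa4 over Ndufa4l2, which was not tested. The last of these follows Ndufa4, since Ndufa4l2 is near the detection limit.

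Promoter windows of RefSeq (GRCm38.p6, 250 bases before to 50 after a start site) were found for 68 of the members, in 73 windows. They were searched on both strands for letters of sites of NRF1, of ETS factors such as GABP and of YY1, which are known to drive many respiratory genes. An NRF1 site with a free base, spelled GCGCA, any base, GCGC, was in 18 of the 73 member windows (24.7%) and in 4.60% of all 32851 windows, and its stricter form with T at the free base, which it includes, in 6.85% and 0.971%. The ETS core CCGGAAG was in 21.9% of the member windows and 8.86% of all. The YY1 letters AAGATGGC were in 13.7% and 2.75%, and the longer form that goes on with GG, which holds the shorter, in 6.85% and 0.852%. At least 1 of the NRF1 site with the free base, CCGGAAG and AAGATGGC was in 38 of the member windows (52.1%) and in 14.7% of all windows. Among the tissue forms and Ndufa4l2, 4 of 8 genes had a window and none of these 4 held any of the letters, which says only that the letters are not in these windows. The set of all windows was not limited to expressed genes and not matched to the members in base composition. A match is a description and not evidence of binding.

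Sequences upstream of a start site, cut where an annotated exon begins, are shown for Ndufa4, on which the comparison of plates turns, and for 1 gene each of complexes I, III, IV and V with a match in the printed stretch. Capitals mark the NRF1 site with the free base or CCGGAAG on either strand, and all genes shown are on the minus strand. The stretches are chr6:11907498-11907700 for Ndufa4, chr4:123718203-123718436 for Ndufs5, chr4:116075072-116075268 for Uqcrh, chr5:115348982-115349129 for Cox6a1 and chr11:115419963-115420127 for Atp5h.
Ndufa4: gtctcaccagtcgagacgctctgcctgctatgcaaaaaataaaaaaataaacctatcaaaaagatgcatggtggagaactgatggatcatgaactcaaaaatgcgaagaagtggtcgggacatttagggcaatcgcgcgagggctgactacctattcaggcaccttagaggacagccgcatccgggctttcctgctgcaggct
Ndufs5: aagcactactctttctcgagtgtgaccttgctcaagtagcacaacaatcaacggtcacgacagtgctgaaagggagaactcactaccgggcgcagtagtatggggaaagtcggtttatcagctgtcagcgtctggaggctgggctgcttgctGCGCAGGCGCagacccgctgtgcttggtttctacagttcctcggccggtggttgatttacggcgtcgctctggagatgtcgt
Uqcrh: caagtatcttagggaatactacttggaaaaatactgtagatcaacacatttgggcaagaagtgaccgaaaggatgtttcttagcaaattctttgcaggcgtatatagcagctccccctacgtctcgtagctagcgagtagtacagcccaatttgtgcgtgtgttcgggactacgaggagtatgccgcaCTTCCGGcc
Cox6a1: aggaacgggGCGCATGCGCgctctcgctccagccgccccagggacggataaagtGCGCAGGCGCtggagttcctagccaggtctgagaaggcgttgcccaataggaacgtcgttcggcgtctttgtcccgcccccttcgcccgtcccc
Atp5h: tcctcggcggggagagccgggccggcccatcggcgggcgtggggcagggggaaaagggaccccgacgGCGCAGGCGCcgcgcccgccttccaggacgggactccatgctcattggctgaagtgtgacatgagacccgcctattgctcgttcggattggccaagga
Cox6a1 holds 2 NRF1 matches, the more distant of which has the stricter form. The Ndufa4 stretch holds none of the letters, and neither does its whole window.

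Starts of members often lay next to the start of another gene. A protein-coding neighbour on the opposite strand, head to head within 1000 nt, was annotated for 19 of 86 members (22.1%) and for 1321 of 12909 protein-coding genes tested (10.2%). Among them were Sdha with Ccdc127, 29 nt apart, Sdhd with Timm8b, 98 nt apart, and Ndufa4 with Phf14, 312 nt apart.

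Between the plates, Ndufa4 was the 1 member past the adjusted threshold in edgeR with TMM scaling, and the number of members called differed between alternatives. Its protein was first assigned to complex I and is now counted with complex IV. Ndufa4 (ENSMUSG00000029632, chromosome 6 of GRCm38, 11900292 to 11907497, minus strand) had 798, 722 and 901 CPM on plate 1 and 316, 335 and 266 CPM on plate 2. All plate 2 libraries lay below all plate 1 libraries, with means of 807 ± 89.7 and 306 ± 35.9 CPM (SD, n = 3 each). In edgeR's quasi-likelihood test with TMM scaling, the log2 fold change of plate 2 over plate 1 was -1.66 (SE 0.13), a level 3.17-fold higher on plate 1, with an adjusted p of 0.00667 by Benjamini-Hochberg over 15669 genes. Its p of 4.26e-07 was the smallest of all genes tested. The call held in 12 of 14 alternatives, with a log2 fold change between -1.78 and -1.40, and it was lost without plate 1 replicate 1 (adjusted p = 0.0591 in edgeR) and without the lowest library of plate 2 (adjusted p = 0.0717 in edgeR). Without the middle library of plate 2 the adjusted p in edgeR was 8.41e-07.

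Of the genes close to Ndufa4 in position or kind, Phf14 was tested and Ndufa4l2 and AA467197 did not pass the filter on low counts. Phf14, whose start lies head to head with it, had 99.3, 97.3 and 88.3 CPM on plate 1 and 107, 87.0 and 98.0 CPM on plate 2. These values overlap, and its log2 fold change was -0.23 (adjusted p = 0.381 in edgeR). Ndufa4l2 was near the limit in both plates, and AA467197, another relative known as Nmes1 and induced in inflammation, had at most 3 counts.

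The share of members called was 1 of 80 tested (1.25%), where 29 of all 15669 genes (0.185%) were called. By complex, the members called were 0 of 36 for complex I, 0 of 4 for complex II, 0 of 8 for complex III, 1 of 15 for complex IV and 0 of 17 for complex V. Not tested, because they did not pass the filter on low counts, were Cox4i2, Cox6b2, Cox8b, Cox8c, Ndufa4l2 and the Atp5o row that was at 0. Most other members were slightly lower on plate 2 relative to all genes. At an unadjusted p under 0.05, 23 members were lower on plate 2 (28.8%, against 7.95% of all genes) and 2 were higher (2.5%, against 8.13%). TMM-scaled levels did not overlap between the plates for 29 members lower on plate 2 (36.2%, against 12.0% of all genes) and for 4 members higher (5.00%, against 12.8%), namely Sdha, Atp5f1, Atp5a1 and Ndufs1. The 80 members had a median log2 fold change of -0.17, with 64 below 0 and 16 above, and all genes had a median of 0.03, with 54.1% above 0.

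This lean holds relative to the other genes and not as a share of all counts. With the library total as the only scaling, the median log2 fold change was 0.30 for all genes and 0.09 for the members, with 55 members above 0 and 25 below, and 7 of 80 members were called (8.75%, against 9.46% of all genes). Relative to all genes the members' median was -0.20 with TMM and -0.21 with totals. The lower share of Bc1 on plate 2, given above, enters every total there, and its part in the shift was not tested. Ndufa4 and Cox6a2 were lower on plate 2 under both scalings, and Sdha was higher under both.

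**Figure D3:**
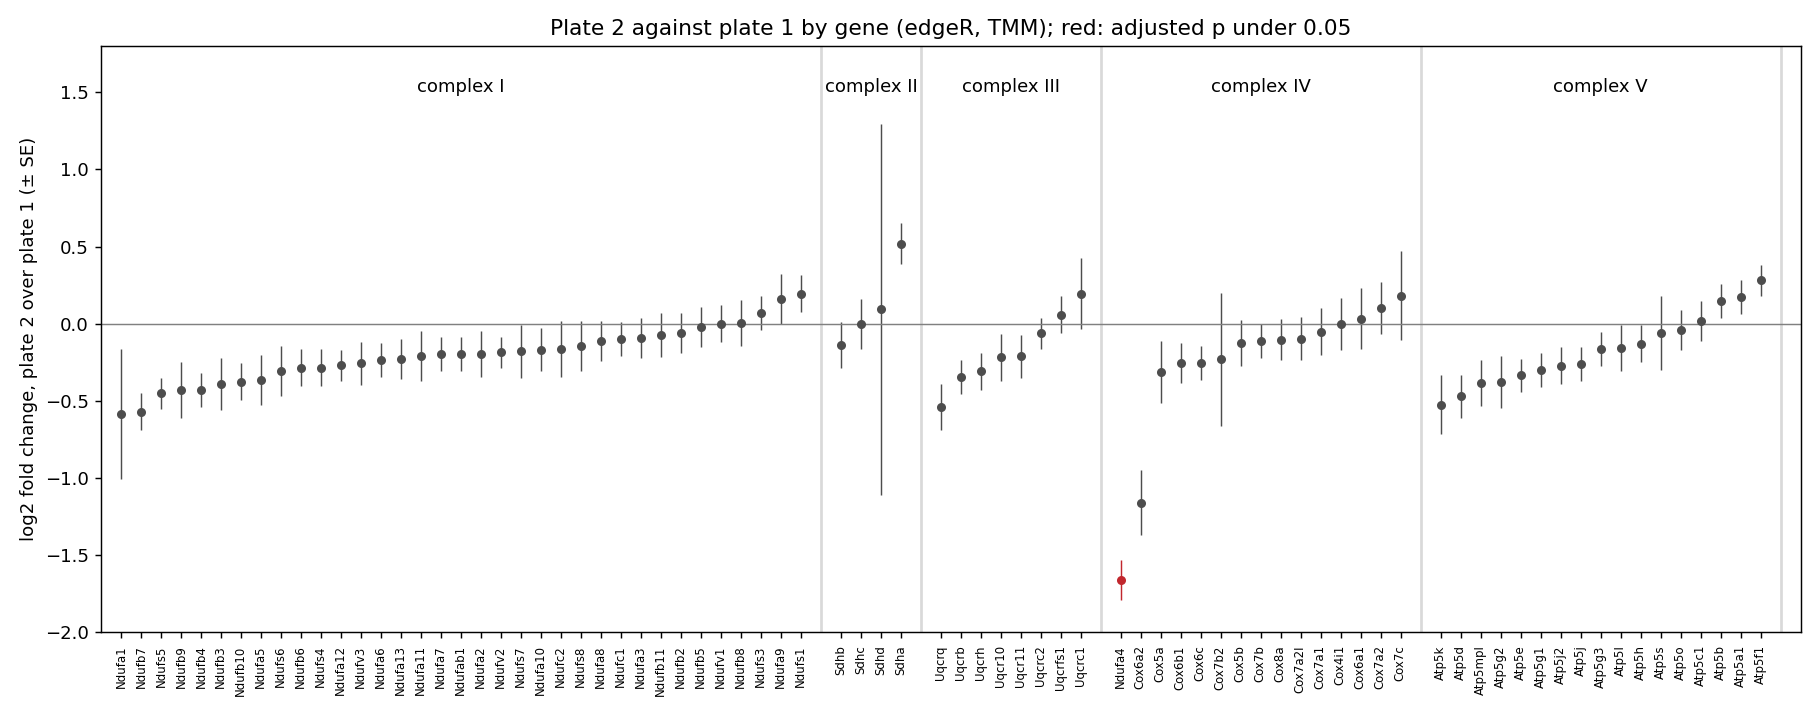
Log2 fold change of plate 2 over plate 1 with its standard error (vertical axis) for the genes tested (1 of the 80 is not drawn), grouped by complex and ordered by size, from edgeR with TMM scaling. Ndufa4, in red, at -1.66 is the gene with an adjusted p under 0.05, and Sdhd has an error of 1.2.

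Cox6a2, with the largest fold change below 0 after Ndufa4, and Sdha and Atp5f1, with the largest above 0, did not pass the adjusted threshold in edgeR with TMM scaling over all 6 libraries. Cox6a2, whose levels stand above, had a log2 fold change of -1.16 (SE 0.21) with an adjusted p of 0.0712, and no plate 2 library reached a plate 1 library. It had an adjusted p of 0.0344 in edgeR with library totals only, 0.00136 with no filter on low counts and 0.000975 without the middle library of plate 2, and of 0.000284 in DESeq2. It did not pass in the other alternatives, with 0.0996 in limma-voom, and 0.351 and 0.372 in edgeR without plate 1 replicate 1 or 2. Itgad, at 0.343 CPM, overlaps it on the opposite strand. Sdha had 72.2, 68.3 and 75.4 CPM on plate 1 and 107, 143 and 121 CPM on plate 2, again without overlap, and its log2 fold change was 0.52 (SE 0.13, adjusted p = 0.134). The adjusted p of Sdha in edgeR was 0.0273 with library totals only, 0.0251 with no filter and 0.0284 without the middle library of plate 2. Sdha did not pass in the other alternatives, with 0.0594 in DESeq2, and 0.429 and 0.416 in edgeR without plate 1 replicate 1 or 2. Atp5f1, subunit b of the peripheral stalk, had 396, 363 and 377 CPM on plate 1 and 568, 520 and 575 CPM on plate 2, a log2 fold change of 0.28 (SE 0.10, adjusted p = 0.228, and 0.0277 in edgeR with library totals only). Wdr77, at 85.1 CPM, overlaps Atp5f1 on the opposite strand.

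Ndufb7, an accessory subunit of complex I, and Uqcrq had log2 fold changes below 0. Ndufb7 had 115, 123 and 117 CPM on plate 1 and 94.0, 105 and 89.1 CPM on plate 2, with a log2 fold change of -0.57 (SE 0.12, adjusted p = 0.0912). Uqcrq had 996, 983 and 972 CPM on plate 1 and 800, 982 and 659 CPM on plate 2, with a log2 fold change of -0.54 (SE 0.15, adjusted p = 0.156). On the CPM scale its plates overlapped in the middle library of plate 2. Both had an adjusted p under 0.05 in DESeq2, without a filter on low counts and without that library. DESeq2 also called Ndufs5 at -0.47 (adjusted p = 0.0139) and Ndufb4 at -0.45 (adjusted p = 0.046), both accessory subunits of complex I. In all, 6 of 80 members were called in DESeq2, against 3.73% of all genes, and 5 of 83 in edgeR with no filter on low counts, against 2.02%.

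The median log2 fold changes of the parts of the complexes are given as a description, and differences between parts were not tested. The 7 core genes of complex I had a median log2 fold change of -0.00077, with 3 above 0, and the 19 accessory genes of its membrane arm -0.21, with 1 above 0. In complex III, the 3 core genes had a median of 0.06 and the 5 accessory genes -0.31. In complex V, the 5 genes of the F1 head and stalk had 0.02, with 3 above 0, and the 4 small membrane subunits -0.33, with none above 0. The 3 genes of its c ring had -0.30, with none above 0, and the 4 tested of its peripheral stalk -0.085, with 1 above 0. The 9 accessory genes of the matrix arm of complex I had -0.255, with 1 above 0. Without the middle library of plate 2, the median was -0.12 for the core of complex I, with 1 above 0, -0.13 for the core of complex III and -0.12 for the F1 head and stalk, so that the sign turned for the last 2. The accessory genes of the membrane arm of complex I then had -0.27, those of complex III -0.43 and the small membrane subunits of complex V -0.49. Without that library the matrix arm of complex I had -0.38, the c ring -0.23 and the peripheral stalk -0.23. Among the core genes, Ndufv1 was at -0.00077, Ndufs1 at 0.19, Ndufs7 at -0.18, Sdhb at -0.14, Uqcrc1 at 0.19, Uqcrc2 at -0.06 and Uqcrfs1 at 0.06, and none of these passed the adjusted threshold in edgeR with TMM scaling over all 6 libraries. Cox4i1 was at -0.0029, Cox5a at -0.31, Cox5b at -0.12, Atp5a1 at 0.17 and Atp5b at 0.15. With library totals only, Ndufs1, Atp5a1 and Atp5b passed it in edgeR, at adjusted p of 0.0462, 0.0394 and 0.0428. Without the middle library of plate 2, Ndufs7 at -0.42 (adjusted p = 0.0222), Cox5a at -0.57 (adjusted p = 0.0286) and Cox5b at -0.32 (adjusted p = 0.0254) passed it in edgeR.

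The plate difference went with the length of the coding sequence. Coding lengths of the members were short, with a median of 417 nt against 1392 nt for all protein-coding genes tested. Across 80 members, which are not independent and share libraries, Spearman's rho between coding length and log2 fold change was 0.498, and across 12880 protein-coding genes it was 0.272. Of the 11 members of at least 1000 nt, 7 had a log2 fold change above 0 and the median was 0.15, led by Sdha with 0.52. All 8772 protein-coding genes tested of at least 1000 nt had a median of 0.09. Of the 59 members under 600 nt, 5 were above 0 and the median was -0.23, and all 1695 protein-coding genes of that length had a median of -0.14. Without the middle library of plate 2, 4 of the 11 long members were above 0 with a median of -0.04, the short members had a median of -0.32, and rho was 0.421. Length also went with level, since rho between coding length and mean CPM was -0.452 for the members and -0.138 for all protein-coding genes tested.

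**Figure D4:**
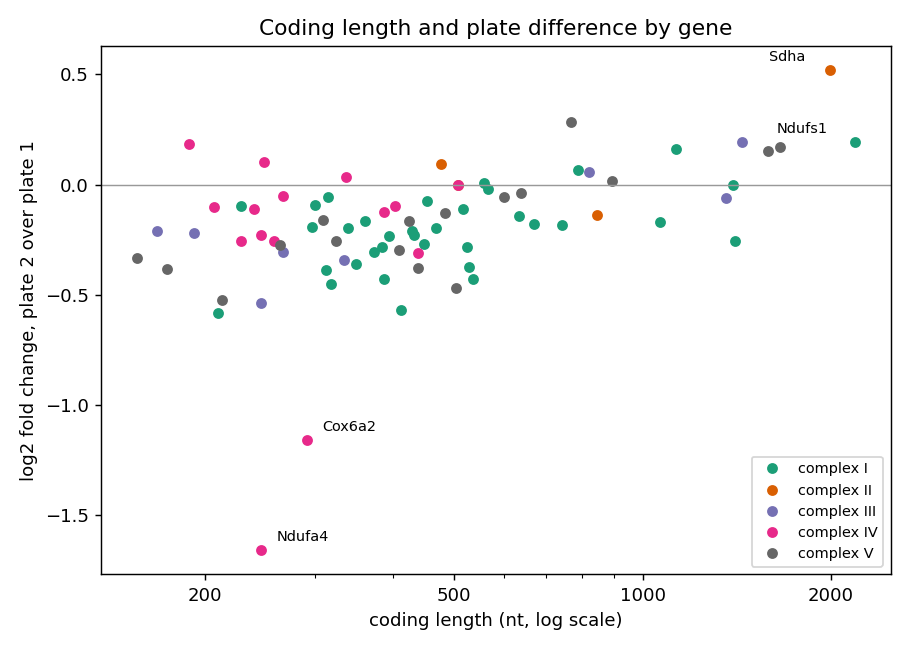
Log2 fold change of plate 2 over plate 1 (vertical axis) against coding length in nt (log axis) for the genes tested (1 of the 80 is not drawn), coloured by complex. Most genes under 600 nt lie below 0, the longest genes such as Sdha and Ndufs1 lie above it, and Ndufa4 and Cox6a2 lie far below genes of like length.

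Single members set the middle library of plate 2 apart. Sdhd had 33.0, 28.9 and 40.2 CPM on plate 1 and 53.1, 1.49 and 77 CPM in the lowest, middle and highest library of plate 2. The middle library was 43.7-fold below the mean of the other plate 2 libraries, with 46 counts. Ndufa1 had 571, 535 and 604 CPM on plate 1 and 590, 193 and 596 CPM on plate 2, 3.08-fold below in the same library, and Cox7c, whose copies limit its value, had 672, 393 and 939 CPM there, 2.05-fold below. Of 76 members of at least 30 CPM, these 3 (3.95%) were under 0.5 times the mean of the other plate 2 libraries, where 354 of 5031 genes (7.04%) were.

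**Figure D5:**
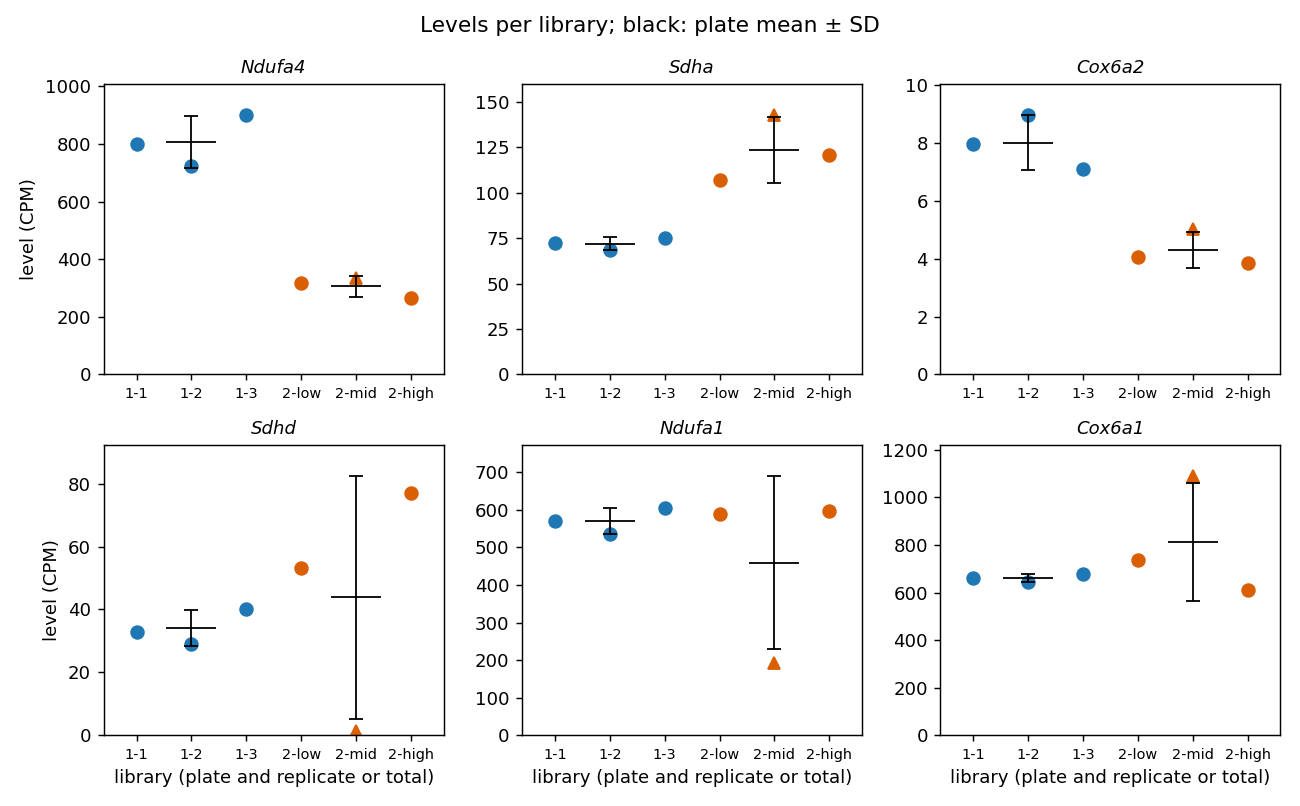
Levels (CPM, vertical axis from 0) of 6 genes in each library, labelled by plate and replicate or by plate and rank of the total, with the mean and SD of each plate in black (n = 3). Ndufa4 and Cox6a2 are lower and Sdha higher in all plate 2 libraries, while Sdhd, Ndufa1 and Cox6a1 are set by the middle library of plate 2.

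Most members went the other way in that library. Of the 76, 62 were above the mean of the lowest and highest library of that plate and 14 below it, with a median log2 difference of 0.26, whereas 2657 of the 5031 genes were lower and their median was -0.03. Cox6a1, with 1090 CPM against 609 to 737 CPM in the others, and Uqcrc1, with 144 CPM against 68.0 to 85.9 CPM, were highest relative to the others. The share of G and C in the final 200 nt of the transcript went with the difference, with a Spearman rho of 0.442 over the 76 members and 0.511 over 5030 genes, which share the 3 libraries. This share was 33.0% for Sdhd, 36.0% for Ndufa1 and 55.6% for Uqcrc1. It was 51.8% for Atp5g2 and 53.7% for Sdhc, which were lower in that library, and 39.0% for Cox5a and 48.0% for Cox6a1, which were higher. Its part in these values was not tested.

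Without the middle library of plate 2, 38 of 80 members passed the adjusted threshold in edgeR, 35 lower on plate 2 (43.8%, against 7.83% of 15894 genes) and 3 higher (3.75%, against 4.20%). The lower ones were 16 genes of complex I, 5 of complex III, 6 of complex IV and 8 of complex V, and none of complex II. Atp5k, subunit e of the ATP synthase, had a log2 fold change of -0.81 (SE 0.10, adjusted p = 0.000241), Uqcrq -0.74 (SE 0.10, adjusted p = 0.000309) and Ndufb9 -0.71 (SE 0.09, adjusted p = 0.000267). The 3 higher were Sdha, Sdhd and Atp5f1, at 0.36, 0.63 and 0.29. The members' median was then -0.28 and that of all genes 0.01. Pecam1, whose levels stand above, was also lower in every plate 2 library than in any of plate 1, and its part in these values was not tested.

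The other genes of the pathway were 77 listed genes outside the name rule, of which Cyc1 is a core subunit of complex III, and none of the 71 tested passed the adjusted threshold in edgeR between the plates. At an unadjusted p under 0.05, 5 were higher and 6 lower on plate 2 (all genes 8.13% and 7.95%), and the median log2 fold change was -0.02, with 32 above 0 and 39 below (all genes 54.1% above). Of 50 assembly factors tested, 16 lay above 0 and 34 below. Of 13 regulators tested, 10 lay above 0. The regulator with the smallest p was Tfb1m, an enzyme that modifies mitochondrial ribosomal RNA. It had 3.63, 4.46 and 3.50 CPM on plate 1 and 7.90, 8.05 and 7.18 CPM on plate 2. Its log2 fold change was 0.73 (SE 0.20, adjusted p = 0.142). Ppargc1a, a coactivator of respiratory genes in muscle and brown fat, had at most 4 counts in a library, while Nrf1 had 29.1 CPM, Gabpa 15.2 CPM, Yy1 128 CPM and Tfam, which packs mitochondrial DNA, 144 CPM.

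Among carriers of electrons and nucleotides, Cycs, the somatic cytochrome c, had 754 ± 56.2 CPM (SD, n = 6) and Cyc1, the cytochrome c1 of complex III, 117 CPM. The adenine nucleotide carriers Slc25a4 and Slc25a5 had 495 and 530 CPM and the phosphate carrier Slc25a3 462 CPM, levels like those of the ATP synthase subunits. Cox17, which brings copper to complex IV, had 696, 623 and 734 CPM on plate 1 and 709, 131 and 840 CPM on plate 2, low in the same library as Sdhd and Ndufa1. Usmg5 and Ndufb1-ps, which the annotation used here names outside the rule although they correspond to a subunit each of complexes V and I, had 1962 and 318 CPM.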

How the data were processed

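The authors prepared polyadenylated RNA with a 3′ end kit, trimmed the reads with Trim Galore 0.6.4, assigned them with Salmon 1.5.1 to transcripts of GENCODE release M23 on GRCm38 with no correction for length, and took sums by gene. What was deposited are expected counts, without normalization, of which 7.08% to 8.89% per library are not whole. No sample column was left unused.

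CPM here is the unrounded count over the library total, computed from the deposited expected counts. Symbols and coordinates are from GENCODE release M21 on GRCm38, in which 174 identifiers were not found. Members were then read by the name rule, so that a subunit with another symbol in that release falls outside it. Counts were rounded for edgeR 4.0.16, and plates were compared with TMM, filterByExpr and the robust quasi-likelihood test over 15669 genes at an adjusted p of 0.05 (Benjamini-Hochberg). DESeq2 1.42.0, limma-voom 3.58.1, other scalings and filters, addition of near-identical copies (BLAST 2.17.0) and omission of each library were the alternatives, and a block for the number in the column name was added after the data were seen. The tests were tried on simulated data with known changes. Paralogues were compared with a pseudocount of 1 CPM by a two-sided exact permutation test that flips signs over libraries. R 4.3.3, Python 3.11.15, pandas 2.3.3, numpy 2.4.6, scipy 1.17.1 and matplotlib 3.10.9 were used.

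The members and lists were chosen with earlier results of these data known. Genes were named by rule. These were the highest and lowest 3 of each complex above 3 counts in every library, the catalytic core, all paralogue pairs, members with an adjusted p under 0.05 between plates, members with 3 counts or fewer in some library, and members whose highest or lowest library is set apart. Ndufb7, Atp5f1, Atp5k, Cox7c, Ndufb9, Ndufs5 and Ndufb4 in the comparison of plates, Sdhd as a low library, the overlapping genes, and Usmg5 and Ndufb1-ps were named after their values were seen. In the shallowest library, of 21399987 counts, a level of 100 CPM stands for 2140 counts, with a counting error of 2.16%, against a median coefficient of variation of 12.9% over the libraries. The values of 1 member that the rule names are not reported here and are not drawn, though counts, sums and medians include it.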

Additional observations from a re-analysis of the deposited data

Results flagged for a closer look

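A highest or lowest library stood apart from the other 5 in 18 of 88 sets of 6 libraries examined (81 members, the sums of members and complexes, and the totals), where the gap to the nearest library, as a share of the whole range, is above Dixon's 95% critical value. Chance sets about 1 in 20 such groups apart where groups are independent. These sets share the same 6 libraries and the sums hold the members, so that this rate cannot be set against the 18. In all 18 the library was that of plate 2 with the middle total.

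That library was highest for 12 members. These were Cox5b at 583 CPM (others 412 to 455), Cox6a1 at 1090 CPM (609 to 737), Cox7a2 at 1172 CPM (708 to 869), Cox7a2l at 312 CPM (222 to 254) and Cox8a at 1344 CPM (1009 to 1124) of complex IV. In complex I they were Ndufb2 at 387 CPM (285 to 317), Ndufa3 at 384 CPM (289 to 320) and Ndufb11 at 553 CPM (391 to 440), and in complex III Uqcrc1 at 144 CPM (68.0 to 85.9). In complex V they were Atp5l at 809 CPM (575 to 627), Atp5h at 742 CPM (585 to 642) and Atp5o at 764 CPM (552 to 615). It was lowest for Atp5g2 at 174 CPM (255 to 280) and for Ndufa1 at 193 CPM (535 to 604). The sums were highest in it too, with 35553 CPM for all members (others 30194 to 31791), 11064 CPM for complex I (9726 to 10205), 9399 CPM for complex IV (7521 to 8224) and 10940 CPM for complex V (9272 to 9889). Sdhd, at 1.49 CPM in that library, did not pass this measure, because its other libraries are also spread widely, from 28.9 to 77 CPM.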

How the results depend on the processing

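The fold change of Ndufa4 kept its sign in all 14 alternatives, between -1.78 and -1.40 on the log2 scale, and from -1.78 to -1.57 without a library, and lost the adjusted threshold in 2 of these, at -1.68 each. Against 1 member called in the reported fit, 7 were called with library totals only (9.46% of all genes), 6 with DESeq2 (3.73% of all genes), 5 with no filter on low counts (2.02% of all genes), and 0 to 38 when a library was left out. Over all genes, against 29, the count was 1482 with library totals only, 584 with DESeq2, 10 with limma-voom, 545 with no filter, and 0 to 1911 when a library was left out. Members lower on plate 2 at an unadjusted p under 0.05 were 3 with library totals only and 8 to 54 without a library, against 23, and members higher were 12 and 1 to 4, against 2. Omission of the middle library of plate 2 gave the 38, 1911 and 54, and leaving out plate 1 replicate 1 or the lowest library of plate 2 gave the 0. The members' median log2 fold change was 0.09 with library totals only and -0.28 to -0.11 without a library. The cause of these moves was not tested. With library totals only, 39 of 80 members changed the sign of their fold change, and in the other alternatives 1 to 11 did.

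The sum over all members stayed within 1 SD of 31844 CPM in every alternative run. The sum of complex IV was 9134 CPM with copies added. That of complex I was 10719 CPM when genes of the mitochondrial chromosome were left out of the total. The order within each of the 12 pairs was the same in every alternative run, while the ratio to a form near the detection limit moved with the pseudocount, for Ndufa4 over Ndufa4l2 from 8.82 to 11.37 with 0.1 CPM and 6.62 with 5 CPM on the log2 scale. The labels number the samples from 1 to 6, while the columns are numbered from 1 to 3 on each plate. As a replicate block, chosen after seeing the data, the column number left 1 member and 5 of all genes called, with Ndufa4 at -1.67 (adjusted p = 0.0497 in edgeR). For columns with the same number, the correlations of their deviations from the plate means were 0.0171, 0.0202 and 0.0835 over 15669 genes. They lay between -0.054 and 0.0311 for columns with different numbers, and not every column correlated best with its own number. With 3 columns a plate, whose deviations depend on each other, these values cannot decide whether columns pair. Calls rest on 3 samples a plate, and a count of 0 allows up to 0.14 CPM in the shallowest library.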
